A study of Mus musculus with 9 samples.

Results

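The 10 genes described here encode acute phase proteins, plasma proteins that the liver secretes in amounts that change with infection and injury. They are Saa1, Saa2, Saa4, Hp, Orm1, Orm2, Crp, Apcs, Cp and Itih4, taken by name from the 33732 gene names of a table of exon levels. All 10 were found and all 10 passed the filter on low values, which 5510 genes passed. The levels come from RNA immunoprecipitation and sequencing (RIP-seq), in which an antibody against an RNA-binding protein pulls down that protein with the RNA it holds. Antibody to HuR gave 3 libraries (called HuR 1, 2 and 3), control IgG gave 3 (IgG 1, 2 and 3), and there were 3 of Input, the RNA of the lysate, for which the authors gave a mean only. All came from whole healthy liver of C57BL/6 WT mice of 8 weeks, and the RIP was native, with no crosslink, on the lysate of a single liver per pull-down. The series was made to find the RNAs that HuR targets in mouse liver. No group was given an inflammatory stimulus, so the levels are those of the resting liver. Where 3 values follow each other they stand for libraries 1, 2 and 3 in that order.

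The RNA-binding protein HuR (gene Elavl1) prefers U-rich and AU-rich stretches, mostly in 3′ untranslated regions (3′ UTRs) and introns, and it is best known for stabilising short-lived mRNAs. In the acute phase response, interleukin-6 and interleukin-1 released at a site of injury act on hepatocytes, where STAT3, NF-κB and C/EBP factors switch on a set of secretory genes. In the mouse the serum amyloid A proteins Saa1 and Saa2 are induced most strongly, serum amyloid P (Apcs) is a major acute phase pentraxin, and Crp, the main clinical marker in people, responds weakly. Saa4 is made constitutively.

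AU-rich and U-rich motifs were counted in the 3′ UTRs, and introns were not searched. In the longest annotated 3′ UTR of each gene (GENCODE M21, build GRCm38, also called mm10; T stands for U, read on the transcript's strand), the AU-rich core ATTTA occurred 3 times in Crp, once in Saa4 and once in Cp, and 0 times in the other 7 genes. These matches are shown with the core in capitals, in windows of 26 bases, 5′ to 3′.
Saa4 (chr7:46728792-46728817, minus strand): gatggtatacATTTAtaatcctagca
Crp, first match (chr1:172699172-172699197, plus strand): agagcacggaATTTAaatggaaggct
Crp, second match (chr1:172699398-172699423, plus strand): tgagtgctgtATTTAcatactttcta
Crp, last match (chr1:172699641-172699666, plus strand): tactgattacATTTAgtgcttcttgt
Cp (chr3:20007441-20007466, plus strand): tgtctcccacATTTActgtacttctc
Of the 3′ UTRs of tested genes with lengths within 2-fold, 69.8% held ATTTA for the length of Crp (935 bases), 82.5% for Saa4 (1524 bases) and 73.7% for Cp (1073 bases). A longer AU-rich core (TATTTAT) was in 0 of these 10 longest 3′ UTRs. A run of 7 U (TTTTTTT) was in 0 of the 10 as well, and TTTATTT was in Cp alone. Shorter annotated 3′ UTRs of Cp differed. That of 619 bases held 5 matches to ATTTA, that of 325 bases held 1 to TATTTAT, and that of 613 bases held 0 to either. Matches of these motifs can overlap and were counted at each start. Among all 3922 longest 3′ UTRs of tested genes, 27.5% held TATTTAT, 47.1% held TTTTTTT, 41.5% held TTTATTT and 69.1% held ATTTA. Saa1 (207 bases), Saa2 (204), Hp (143), Orm1 and Orm2 (113 each) and Apcs (142) have short 3′ UTRs, and at such lengths 17.7% to 28.3% of 3′ UTRs held ATTTA. U made up 36.1% of the 3′ UTR of Crp, against a median of 28.4% at like lengths. In the other 9 genes it was 21.0% to 29.6%, where the medians at like lengths were 26.9% to 29.3%. A match of letters does not show a bound site.

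Near-identical copies limit how far reads can be assigned to 1 gene. The Saa1 and Saa2 transcripts were identical at 94.4% of 606 aligned bases, with a longest identical run of 99 bases, and Orm1 and Orm2 at 91.0% of 775, with a run of 141. Coding windows of 30 bases show where the copies can be told apart, with the differing bases in capitals.
Saa1 (chr7:46741337-46741366, minus strand): tgacatgaaggaagctAActggaaaAaCTC
Saa2 (chr7:46753446-46753475, plus strand): tgacatgaaggaagctGGctggaaaGaTGG
Orm1 (chr4:63345091-63345120, plus strand): tGggtgcAgctTtcAGaaaAcTCgaGtacA
Orm2 (chr4:63362966-63362995, plus strand): tTggtgcGgctGtcCTaaaCcCTgaTtacC
How reads that map to both copies were counted is not given in the sources used here, so values of either member of these pairs are uncertain.

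Library sizes were 26.3 to 26.9 M reads in HuR RIP and 15.9 to 28.8 M in IgG RIP (M, mega), of which 27.9% to 60.5% and 44.3% to 54.0% lay in listed exons. Protein-coding genes took 14.6% to 32.3% of the listed reads in HuR RIP and 9.70% to 18.2% in IgG RIP. All 10 hepatocyte markers were above 0 in each library, with summed levels of 1003 to 1021 RPKM in HuR RIP and 317 to 823 RPKM in IgG RIP, and 813 RPKM in the Input mean. Of the other cells of whole liver, cholangiocyte markers summed to 0.945 to 2.99 RPKM with HuR and 0 to 0.662 RPKM with IgG. Of these 4 markers, 1 passed the filter on low values. Erythroid markers summed to 64.5 to 172 RPKM in HuR RIP and 98.7 to 234 RPKM in IgG RIP. Kupffer cell markers summed to 4.71 to 11.99 RPKM with HuR and 2.71 to 8.47 RPKM with IgG. For endothelium the sums were 1.27 to 4.07 RPKM with HuR and 0.412 to 3.65 RPKM with IgG. Stellate cell markers summed to 2.05 to 6.17 RPKM with HuR and 0.387 to 3.98 RPKM with IgG. For lymphocytes the sums were 0.041 to 3.36 RPKM with HuR and 0 to 0.0981 RPKM with IgG. Among these other cells, only the cholangiocyte sums did not overlap between the groups. Sox9, the cholangiocyte marker that passed the filter, did overlap. It was at 0.0909, 0.606 and 0.611 RPKM with HuR, against 0.519, 0 and 0 RPKM with IgG. The separation of the sums thus rests on markers that did not pass the filter, and all 4 were at 0 in IgG 2. The 4 neutrophil markers of the table, all at 0 in HuR 2, HuR 3 and Input, summed to 0 to 0.642 RPKM in HuR RIP and 0.0828 to 1.66 RPKM in IgG RIP. The column names carry the letters M or F, and HuR 2, named with M, had the highest Xist, an RNA of the inactive X chromosome (10.2 RPKM, against 0.463 RPKM in HuR 3, named with F). HuR 2 thus goes against its column name, and fold changes of members that move by over 1.5 times without it are given beside the main value. An exchange of the names HuR 2 and HuR 3 would change no comparison between the groups. Elavl1 itself was at 0.950, 0.304 and 0.990 RPKM with HuR and at 0.523, 0.0253 and 0.0134 RPKM with IgG. This is its mRNA, not a check of the protein pulled down.

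The mean level was higher with HuR than with IgG for each of the 10 acute phase mRNAs, but no difference passed the test, and Hp and Itih4 turned lower when libraries were centred at their medians. Levels are gene RPKM, reads per kilobase of merged exons and per mega-read of library, and fold changes are differences of log2(RPKM + 0.5) from limma with Benjamini-Hochberg adjustment over all 5510 tested genes. No member passed the threshold of 0.05 (0 of 10, where limma called 0.672% of tested genes in the higher direction and 0.127% in the lower one). With p under 0.05 before adjustment, the higher members numbered 4 (Crp, Saa4, Saa2 and Saa1) and the lower ones 0, where 27.9% of tested genes lay on the higher side and 3.19% on the lower. In 4 of 10 members, Saa4, Orm1, Crp and Cp, each HuR library lay above each IgG library, which was so for 31.3% of tested genes. The opposite, each HuR library below each IgG library, held for 0 of 10 members and 3.48% of tested genes. The median log2 fold change of the 10 was 1.40, against 0.92 for all tested genes, and 8 of 10 lay above that general shift, with Hp and Itih4 below it. Fold changes that follow are best read against the shift of 0.92. In whole tissue, the number of cells that hold an mRNA and its amount per cell cannot be told apart. The sum of hepatocyte markers moved the same way as most members, and 79.1% of all tested genes had a fold change in that direction. The median log2 fold change of the hepatocyte markers was 1.04, near the general shift. Their part in these results was not tested.

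**Figure D1:**
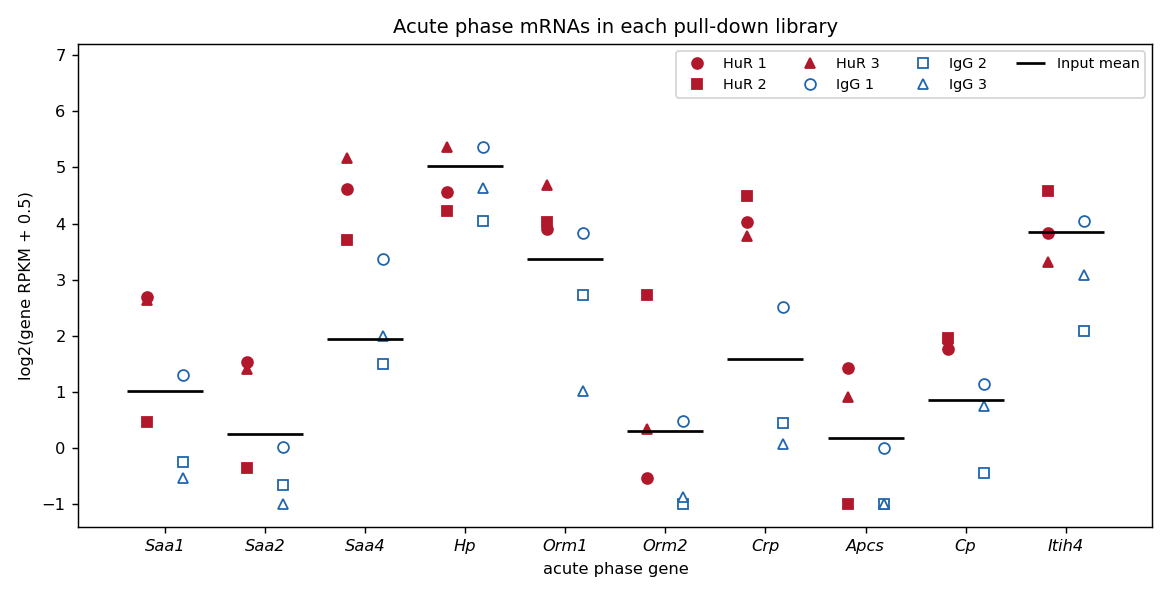
Level of each acute phase gene in each library, as log2(gene RPKM + 0.5) on the vertical axis. Filled red symbols are the 3 HuR libraries, open blue symbols the 3 IgG libraries and the bar is the authors' Input mean. Saa4, Orm1, Crp and Cp have all red symbols above all blue ones, while those of Hp are mixed.

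As a share of all reads in protein-coding genes, the 10 genes took 0.222%, 0.256% and 0.303% with HuR. With IgG they took 0.190%, 0.0925% and 0.203%. The 3 HuR libraries were above the 3 IgG libraries, and an exact permutation test of 3 against 3 cannot go below p = 0.1. Within the 10 genes the mix differed. Hp took 16.4%, 12.6% and 24.3% of their reads with HuR, against 34.9%, 47.7% and 43.7% with IgG. The share of Hp was lower in each HuR library than in any IgG library.

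Serum amyloid A proteins are apolipoproteins of high-density lipoprotein. Saa4 (ENSMUSG00000040017.8, chromosome 7, 46727998 to 46732603) is the constitutive member. It was at 24.0, 12.6 and 35.4 RPKM with HuR, against 9.79, 2.33 and 3.50 RPKM with IgG. In Input the mean was 3.34 RPKM. The lowest HuR library was above the highest IgG library and above Input, while IgG 2 lay below Input and IgG 3 close to it. Averages were 24.0 ± 11.4 RPKM with HuR and 5.20 ± 4.01 RPKM with IgG (SD, n = 3 each), for a log2 fold change of 2.21 (SE 0.90, limma adjusted p = 0.112).

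Saa1 (ENSMUSG00000074115.5, chromosome 7, 46740497 to 46742980) and Saa2 (ENSMUSG00000057465.5, chromosome 7, 46751790 to 46754313) are the strongly inducible pair. By gene RPKM they were low in these healthy livers, and they followed each other. Saa1 was at 5.96, 0.889 and 5.73 RPKM with HuR, against 1.96, 0.348 and 0.196 RPKM with IgG. Saa2 was at 2.38, 0.280 and 2.14 RPKM with HuR, against 0.516, 0.138 and 0 RPKM with IgG. HuR 1 and HuR 3 stood above all IgG libraries for both genes, and HuR 2 lay among the IgG libraries. The 0 of Saa2 in IgG 3 stands for a level of up to 0.0426 RPKM, the value of 3 reads, and covers counting error only. In Input the means were 1.53 RPKM for Saa1 and 0.694 RPKM for Saa2. The log2 fold changes were 1.76 (SE 0.81, limma adjusted p = 0.145) for Saa1 and 1.40 (SE 0.63, adjusted p = 0.137) for Saa2. Without HuR 2 they were 2.49 and 2.01 (adjusted p = 0.121 for each). With the pair counted as 1 locus the value was 1.62 (adjusted p = 0.148). Gene RPKM of this pair is understated, because the listed exons include retained-intron transcripts: merged exons span 2478 bases for Saa1 and 2443 for Saa2, where the spliced transcripts have 609 and 606. Per base of spliced transcript, Saa1 would stand at 24.2, 3.62 and 23.3 RPKM with HuR, against 7.97, 1.42 and 0.797 RPKM with IgG, and at 6.24 RPKM in Input. Any intron reads are included in these values, and their share was not computed. The 3′-most spliced exon of Saa1 (346 bases) was at 21.2, 0.0549 and 20.5 RPKM with HuR. The listed exon of 2446 bases that spans it was at 3.02, 0.458 and 2.90 RPKM. In HuR 2 a spliced exon of 139 bases was at 7.65 RPKM. Per base of spliced transcript, Saa4 is at 24.0, 12.6 and 35.4 RPKM with HuR and 3.34 RPKM in Input. On this length Saa1 was level with Saa4 in HuR 1 and above it in Input.

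Crp and Apcs are short pentraxins, pattern-recognition proteins that bind ligands such as phosphocholine on microbes and damaged cells. Crp (ENSMUSG00000037942.5, chromosome 1, listed exons from 172698055 to 172699962) had the highest log2 fold change of the 10, also under each alternative setting that gave a value for all 10. It was at 15.7, 22.1 and 13.3 RPKM with HuR, against 5.21, 0.863 and 0.553 RPKM with IgG. Input averaged 2.49 RPKM. HuR libraries lay close together, at 17.0 ± 4.53 RPKM, while the IgG libraries, at 2.21 ± 2.60 RPKM (SD, n = 3 each), were spread by IgG 1. The log2 fold change was 3.09 (SE 0.86, limma adjusted p = 0.0607), the 79th highest of 5510 tested genes and 2.17 above the general shift. Without IgG 1 it was 3.84 (adjusted p = 0.0427) and without IgG 2 it was 2.81 (adjusted p = 0.231).

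Apcs (ENSMUSG00000026542.6, chromosome 1, 172893961 to 172895041), which encodes serum amyloid P, rested on few reads from a single listed exon. It was at 2.20, 0 and 1.39 RPKM with HuR (44, 0 and 28 reads), against 0.505, 0 and 0 RPKM with IgG (6, 0 and 0 reads). Input stood at 0.629 RPKM on average. A count of 0 allows up to 0.152 RPKM in HuR 2, 0.150 RPKM in IgG 2 and 0.139 RPKM in IgG 3. HuR 1 and HuR 3 were above each IgG library and HuR 2 was not. The log2 fold change was 1.12 (SE 0.60, limma adjusted p = 0.198), with 1.84 without HuR 2 (adjusted p = 0.118) and 0.62 without HuR 1 (adjusted p = 0.432). With libraries centred at their medians it was 0.01.

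Haptoglobin and ceruloplasmin handle haem and metal: Hp binds free haemoglobin, and Cp carries copper and oxidises iron. Hp (ENSMUSG00000031722.10, chromosome 8, 109575128 to 109579172) was the member with nearly equal averages. It was at 23.0, 18.2 and 40.7 RPKM with HuR, against 40.6, 16.1 and 24.4 RPKM with IgG. In Input the mean was 32.2 RPKM. The groups overlapped throughout. Averages were 27.3 ± 11.9 RPKM with HuR and 27.0 ± 12.5 RPKM with IgG (SD, n = 3 each), for a log2 fold change of 0.03 (SE 0.99, limma adjusted p = 0.983), which is 0.89 below the general shift. Its direction turned with the setting, to -1.07 with libraries centred at their medians, -1.57 under scaling factors of the TMM kind and -0.30 under quantile normalization. Without single libraries it ran from -0.30 (HuR 3 left out) to 0.37 (IgG 1 left out), with 0.27 when HuR 2 was left out.

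Cp (ENSMUSG00000003617.16, chromosome 3, 19957054 to 20009145) was low but even among the HuR libraries. It was at 2.89, 3.42 and 3.36 RPKM with HuR, against 1.70, 0.235 and 1.19 RPKM with IgG. Input averaged 1.32 RPKM. Each HuR library was above each IgG library, with averages of 3.22 ± 0.290 RPKM for HuR and 1.04 ± 0.743 RPKM for IgG (SD, n = 3 each) and a log2 fold change of 1.41 (SE 0.75, limma adjusted p = 0.195). Merged over its many listed transcripts, Cp spans 9254 bases, and this lowers its RPKM.

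Orm1 and Orm2 encode alpha-1-acid glycoproteins, plasma carriers of basic drugs and lipids. Orm1 (ENSMUSG00000039196.2, chromosome 4, 63344560 to 63348163) was at 14.5, 15.7 and 25.3 RPKM with HuR, against 13.7, 6.10 and 1.52 RPKM with IgG. Input stood at 9.85 RPKM on average. The groups did not overlap, but HuR 1 and IgG 1 nearly met. The log2 fold change was 1.69 (SE 0.92, limma adjusted p = 0.203), and it was 0.93 without IgG 3 (adjusted p = 0.583). Orm2 (ENSMUSG00000061540.3, chromosome 4, 63362449 to 63365878) was at 0.194, 6.13 and 0.767 RPKM with HuR, against 0.895, 0 and 0.0448 RPKM with IgG. The Input mean was 0.743 RPKM, and the 0 in IgG 2 allows up to 0.145 RPKM. HuR 2 alone was high: it held 125 reads, against 4 in HuR 1 and 16 in HuR 3, and its exon 4 of 108 bases was at 36.2 RPKM, where the other 5 pull-down libraries had 0. The log2 fold change of 1.31 (SE 0.74, limma adjusted p = 0.222) became 0.37 without HuR 2 (adjusted p = 0.668) and 2.0 without HuR 1 (adjusted p = 0.157). Counted as 1 locus, the pair gave 1.70 (adjusted p = 0.175).

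Itih4 (ENSMUSG00000021922.17, chromosome 14, 30886476 to 30902353) belongs to the heavy chains of the inter-alpha-trypsin inhibitor family, plasma proteins several of which bind hyaluronan. It was at 13.8, 23.4 and 9.43 RPKM with HuR, against 16.0, 3.77 and 8.03 RPKM with IgG. In Input the mean was 13.9 RPKM. IgG 1 was above HuR 1 and HuR 3, so the groups overlapped. The log2 fold change was 0.84 (SE 0.90, limma adjusted p = 0.503), close to the general shift. It was 0.50 without HuR 2, 1.32 without IgG 1 and 0.34 without IgG 2 (adjusted p = 0.776, 0.180 and 0.830), and it turned to -0.27 with libraries centred and to -0.71 under scaling factors of the TMM kind.

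**Figure D2:**
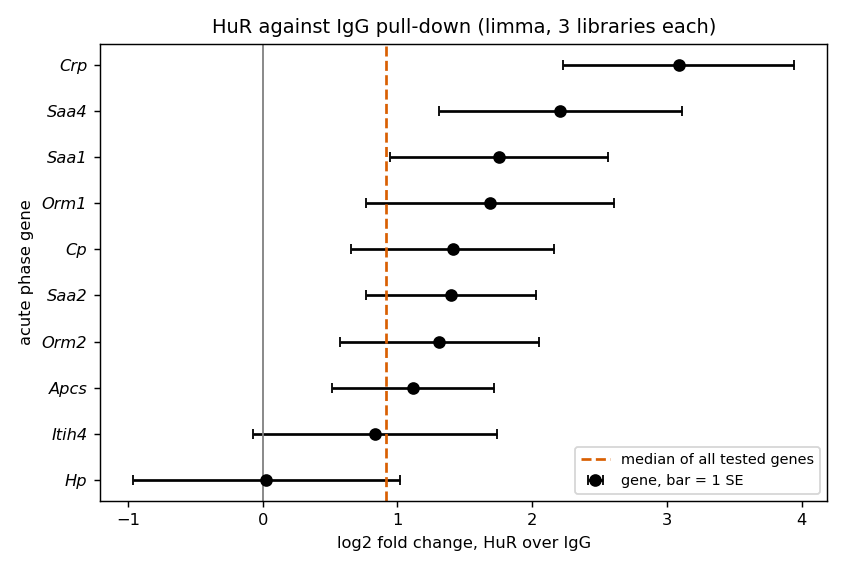
Log2 fold change of HuR over IgG for each acute phase gene (points), with 1 SE from limma (bars, 3 libraries each), ordered by size. The dashed line is the median of all tested genes, 0.92; Hp at 0.03 and Itih4 at 0.84 lie left of it and Crp at 3.09 lies farthest right.

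By mean level per length, the order in HuR RIP was Hp, Saa4, Orm1, Crp and Itih4 (15.6 to 27.3 RPKM), whose neighbours overlapped, followed by Saa1, Cp, Orm2, Saa2 and Apcs (1.20 to 4.19 RPKM), whose neighbours overlapped too. On this length, neighbours had no overlap of libraries only between Itih4 and Saa1. That gap rests on the merged exons of Saa1: per base of the annotated transcript, Saa1 (24.2, 3.62 and 23.3 RPKM) overlapped Itih4 (14.5, 24.5 and 9.85 RPKM). In IgG RIP the order was Hp, Itih4, Orm1, Saa4, Crp, Cp, Saa1, Orm2, Saa2 and Apcs, and neighbours had no overlap only between Hp (27.0 RPKM) and Itih4 (9.25 RPKM). In the Input mean, Hp was highest (32.2 RPKM), followed by Itih4, Orm1, Saa4, Crp, Saa1, Cp, Orm2, Saa2 and Apcs (0.629 RPKM). Saa4 thus stood next to Hp with HuR but below Itih4 and Orm1 in Input. Per base of the annotated transcript, Saa4 kept rank 2 with HuR, but the other orders moved. In Input, Saa1 took rank 4 (6.24 RPKM), Saa4 rank 5 (3.34 RPKM) and Crp rank 8 (2.49 RPKM). In IgG RIP, Saa1 took rank 5 and Crp rank 6.

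Against the Input mean no test is possible. All 3 HuR libraries were above it in 4 of 10 members, Saa4, Orm1, Crp and Cp, which was so for 68.9% of tested genes. All 3 were below it in 0 of 10 members and 3.9% of tested genes, and all 3 IgG libraries were above it in 0 of 10 members and 20.7% of tested genes. The mean log2 difference of the HuR libraries from Input was 2.56 ± 0.73 for Saa4, 2.52 ± 0.36 for Crp, 1.03 ± 0.11 for Cp and 0.84 ± 0.42 for Orm1 (SD, n = 3 each). For Hp it was -0.32 ± 0.59 and for Itih4 0.06 ± 0.64. The median of all tested genes lay 1.22 above Input in HuR RIP and 0.24 above it in IgG RIP, while the medians of the 10 members were 0.72 and -0.78. With each column centred at its median, Saa4 (1.20) and Crp (1.16) stayed above Input and the other 8 lay below it, from -0.33 for Cp to -1.67 for Hp. In the IgG libraries the mean difference was negative for 9 of 10 members, from -0.34 for Hp to -0.85 for Orm1, and 0.35 for Saa4.

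Along the genes, reads of HuR RIP were concentrated at the 3′ end. Merged exons are numbered here as blocks from 5′ to 3′. Among all 3739 genes with at least 3 blocks, the median share of reads in the last block was 86.3%, 68.1% and 86.7% with HuR, against 51.4%, 41.4% and 25.0% with IgG, and 42.0% in Input. limma called 2.94% of these genes higher in the last block relative to the rest of the gene and 0% lower, with a median log2 difference of 1.30. These calls numbered 110, but 0 at a pseudocount of 0.1, 0 with the replicate number as a block and 0 without any single library other than HuR 2, whose omission gave 424. Among the members none passed, so that the profiles that follow are descriptions.

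The last block of Itih4 (719 bases, which holds its annotated 3′ UTR of 649) took 58.2%, 35.8% and 58.1% of the gene's reads with HuR. In IgG 1, 2 and 3 the share was 25.4%, 9.43% and 8.31%, and in the Input mean it was 7.52%. The HuR libraries were above the IgG libraries, as they were for 22.0% of genes with reads in every library. The level of this block was 41.3, 43.1 and 28.1 RPKM with HuR, against 20.8, 1.83 and 3.43 RPKM with IgG. The other 22 blocks together were at 7.17, 18.7 and 4.90 RPKM with HuR, against 14.8, 4.24 and 9.14 RPKM with IgG. In the last block alone the groups did not overlap, and in the other blocks together they did. The log2 difference of last block against rest was 2.63 (SE 0.85, limma adjusted p = 0.0870).

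In Hp the last block (922 bases) took 85.7%, 87.5% and 91.8% of reads with HuR, against 59.8%, 60.1% and 77.0% with IgG, and 74.4% in Input. The HuR shares were above the IgG shares, as they were for 22% of genes with reads in every library. The log2 difference of last block against rest was 1.91 (SE 0.79, limma adjusted p = 0.142). Of the 4 internal blocks of Hp, which are short, block 2 was at 0 in each library and block 4 overlapped, at 3.32, 0 and 18.6 RPKM with HuR, against 10.5, 10.7 and 3.06 RPKM with IgG. Its block 5 (75 bases) was at 6.01, 28.9 and 22.8 RPKM with HuR, against 182, 44.5 and 65.2 RPKM with IgG, and 68.1 RPKM in Input. Block 3 (83 bases) was at 42.6, 17.4 and 21.0 RPKM with HuR, against 137, 68.7 and 43.9 RPKM with IgG. In blocks 3 and 5, singled out for their values, all HuR libraries were below all IgG libraries, narrowly in block 3, and neither passed limma over all blocks (adjusted p = 0.264 for block 5 and 0.388 for block 3). The last block itself was at 34.3, 27.7 and 65.0 RPKM with HuR, against 42.3, 16.8 and 32.8 RPKM with IgG, and these overlapped.

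**Figure D3:**
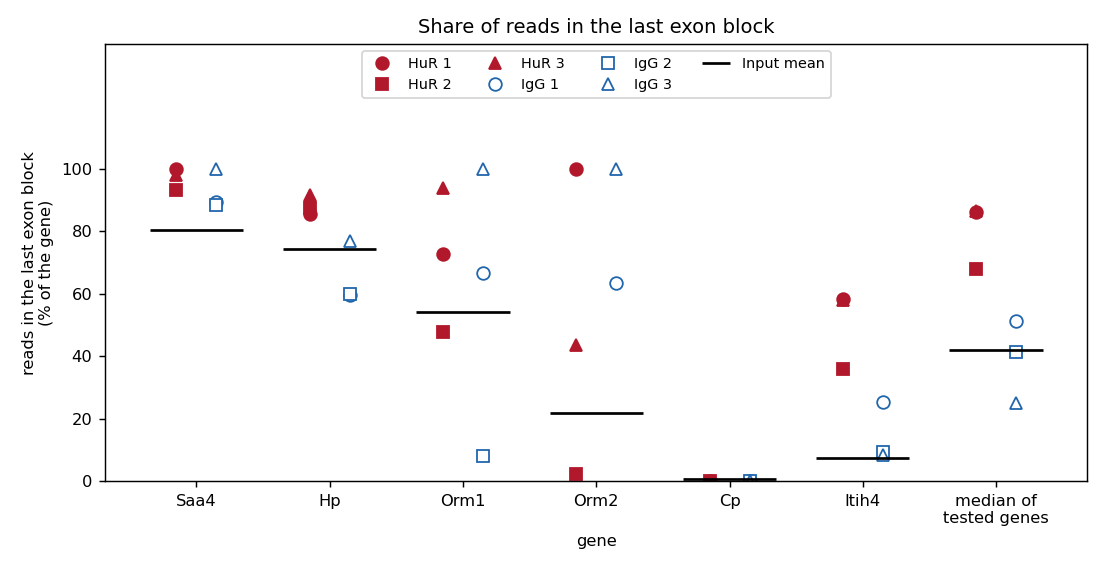
Share of a gene's reads in its last exon block, in percent, for the 6 acute phase genes with at least 3 blocks and as the median of all genes with at least 3 blocks. Filled red symbols are HuR libraries, open blue symbols IgG libraries and bars the Input mean; for Hp and Itih4 and for the median all red symbols lie above all blue ones, those of Saa4, Orm1 and Orm2 overlap, and Cp is at 0 in each pull-down library.

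Saa4 was read almost wholly from its last block (1687 bases, mostly 3′ UTR) in both pull-downs, with 99.9%, 93.2% and 98.2% with HuR, against 89.5%, 88.5% and 100% with IgG. Its block was at 29.8, 14.6 and 43.1 RPKM with HuR, against 10.9, 2.56 and 4.34 RPKM with IgG, and 3.34 RPKM in Input. Crp has only 2 blocks, and the second (1549 bases, with its 3′ UTR and the 3 ATTTA matches) held at least 95.7% of reads in each library. For Orm1 the last block (194 bases) was at 42.2, 29.96 and 95.01 RPKM with HuR, against 36.4, 1.93 and 6.08 RPKM with IgG. Its share of the gene ranged from 47.7% to 93.9% with HuR and from 7.94% to 100% with IgG, so the groups overlapped. Orm2 had few reads, and its last block took 100%, 2.4% and 43.8% of them with HuR, against 63.6% in IgG 1 and 100% in IgG 3, with no reads in IgG 2. The log2 difference of last block against rest was 1.96 for Saa4, 1.68 for Orm1 and -0.95 for Orm2 (limma adjusted p = 0.271, 0.452 and 0.601). Without HuR 2 these were 2.95, 2.56 and 0.39. Without HuR 1 the value for Saa4 was 0.92, and without IgG 2 that for Orm1 was 0.07.

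In Cp no read of the 6 pull-down libraries lay in the last annotated exon block, which was at 0.139 RPKM in Input. The log2 difference of last block against rest was -1.44 (limma adjusted p = 0.246). With 0 reads in the last block of each pull-down library, this value comes from the rest of the gene and the pseudocount. It cannot show a change of the last block. Block 18 (630 bases, chromosome 3, 19992509 to 19993138), which holds the stop codon and the 3′ UTR of shorter Cp transcripts, was at 36.7, 14.4 and 43.0 RPKM with HuR, against 7.21, 0.834 and 14.5 RPKM with IgG. It was at 2.81 RPKM in the Input mean. This was the Cp block with the highest mean in HuR RIP, and HuR 2 lay just under IgG 3. It carried 86.5%, 28.7% and 87.1% of the gene's reads with HuR, against 28.9%, 24.2% and 83.0% with IgG, and 14.5% in Input. The 3 blocks downstream of it, 1771 bases with the end of the longest transcripts, were at 0, 1.33 and 0.0629 RPKM with HuR, against 0 in all 3 IgG libraries and 0.0630 RPKM in the Input mean. The ATTTA shown for Cp lies in these nearly empty blocks. The 3′ UTR of 613 bases that ends in block 18 had 0 matches to any of the 4 motifs, where 56.8% of 3′ UTRs of like length held ATTTA. In HuR 2 other Cp exons were high and in no other HuR library, such as block 2 at 30.6 RPKM and block 10 at 28.7 RPKM, both at 0 in HuR 1 and HuR 3. Only in block 4 (1298 bases) were all HuR libraries above all IgG libraries, at 1.53, 1.49 and 0.659 RPKM against 0 in each. Only in block 12 (251 bases) were all below, at 0, 0.460 and 0.734 RPKM against 9.81, 1.94 and 5.11 RPKM. Neither block passed limma (adjusted p = 0.189 and 0.221).

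**Figure D4:**
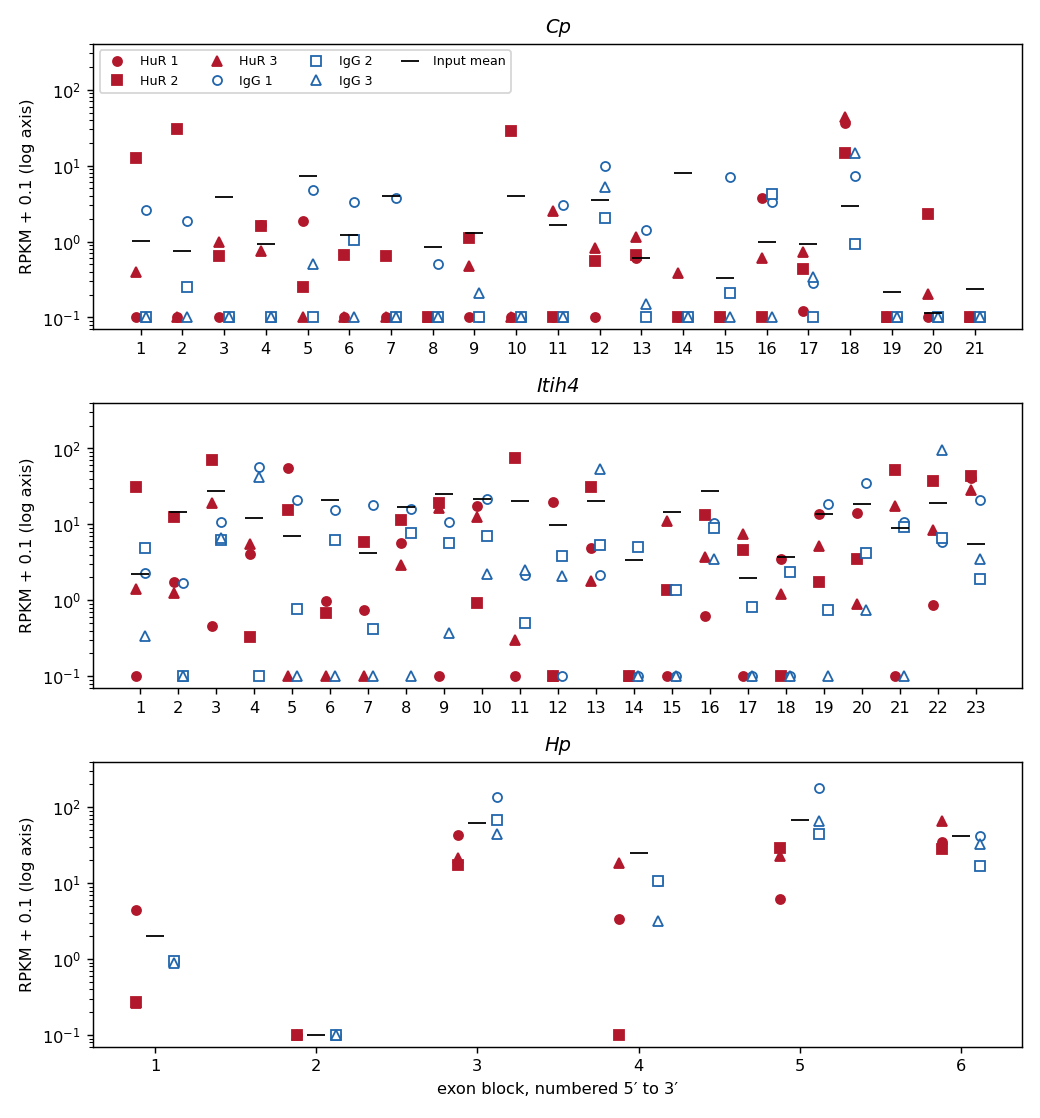
Level of each exon block, numbered 5′ to 3′, of Cp, Itih4 and Hp, as RPKM + 0.1 on a log axis. Filled red symbols are HuR libraries, open blue symbols IgG libraries and dashes the Input mean. In Cp, block 18 is highest in HuR 1, HuR 3 and IgG 3, and other blocks exceed it in HuR 2, IgG 1, IgG 2 and Input. Cp is near the floor after block 18, except for block 20 in HuR 2 (2.22 RPKM). The last block of Itih4 is higher in HuR RIP, and Hp blocks 3 and 5 are lower in HuR RIP.

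Over the 120 distinct exons of the 10 genes, 60 passed the filter and 0 passed limma at an adjusted p under 0.05 (0% of 15298 tested exons passed; lowest adjusted p among members 0.160). At an unadjusted p under 0.05, 6 exons lay on the higher side and 2 on the lower. Of the 6, 4 are nested exons of Itih4 that share a start in its last block, and the others are the last exons of Crp and Saa4. The 2 lower ones are block 5 of Hp and an internal exon of Cp of 208 bases. Of all tested exons, 17.6% lay on the higher side and 3.33% on the lower. In the authors' deposited table, 2 of 115 exons with a p-value had one under 0.05 for HuR against IgG, where 2.3% of exons did: the last exon of Saa4 (0.0328) and the second exon of Crp (0.0358). The q-value in the authors' deposited table was 0.541 for both, and 0% of exons had one under 0.05.

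None of the other acute phase genes passed limma either. Of 22 other genes that rise in the response, 16 were tested, with 0 called, 4 higher at an unadjusted p under 0.05 and a median log2 fold change of 1.05. All 3 HuR libraries were above all IgG libraries in 8 of the 16, against 31.3% of all tested genes; 27.9% of them were higher at that unadjusted p. Hamp, the gene of the iron hormone hepcidin, was at 96.2, 24.5 and 122 RPKM with HuR, against 17.5, 6.04 and 1.52 RPKM with IgG (log2 fold change 3.43, limma adjusted p = 0.0702). Its HuR libraries were all above its IgG libraries. For Steap4, a metalloreductase gene, the log2 fold change was 2.67 (adjusted p = 0.0674), for Serpina3n, a serine protease inhibitor, 2.58 (adjusted p = 0.0739) and for Fgg, the fibrinogen gamma chain, 2.41 (adjusted p = 0.105). Genes whose products fall in the response, 10 of 10 tested, had a median of 0.87 with 0 called and 0 at an unadjusted p under 0.05 by limma. The highest of those named was Rbp4, the retinol carrier of plasma (1.55, adjusted p = 0.289).

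Genes that carry the cytokine signal summed to 123, 78.6 and 83.2 RPKM with HuR, against 44.9, 13.6 and 26.9 RPKM with IgG, and to 11.8 RPKM in Input. Of 20, 12 were tested, with 0 called, 7 higher at an unadjusted p under 0.05 and a median log2 fold change of 1.55, against 27.9% and a median of 0.92 over all tested genes. In 11 of the 12 all 3 HuR libraries were above Input, against 68.9% of tested genes. Nfkbia, the inhibitor of NF-κB, was at 7.05, 5.43 and 6.72 RPKM with HuR, against 1.76, 0.816 and 0 RPKM with IgG, and 0.571 RPKM in Input (log2 fold change 2.59, limma adjusted p = 0.0700). Cebpb, a transcription factor of the response, was at 10.7, 10.4 and 27.8 RPKM with HuR, against 6.29, 2.53 and 0.784 RPKM with IgG, and 0.866 RPKM in Input (2.35, adjusted p = 0.0981). For Il1rap, a subunit of the interleukin-1 receptor, it was 1.79 (adjusted p = 0.0835) and for Nr3c1, the glucocorticoid receptor, 1.83 (adjusted p = 0.107). In the inter-alpha-trypsin family of 5 tested genes, Itih4 included, the median was 0.15 with 0 called and 0 at an unadjusted p under 0.05. Itih1, another heavy chain, had -0.71, Ambp, which encodes the light chain bikunin, -0.19 and Itih3 0.29, all below the general shift.

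A search by pattern over the 6 pull-down libraries left out members, predicted genes (Gm and Rik names), pseudogenes and names that start with n-R. It sought the genes most like the median of the 10 members, by the root mean square difference of centred log2(RPKM + 0.5). They were Ass1, the urea cycle enzyme argininosuccinate synthase (0.140), Klkb1, plasma prekallikrein (0.155), Stbd1, a glycogen-binding protein (0.167), Uox, urate oxidase (0.189), and Adipor2, an adiponectin receptor (0.196), against a median of 0.993 over all tested genes. Of the members themselves Crp (0.496) and Saa4 (0.498) were closest to their common median and Hp (1.25) was farthest from it.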

How the data were processed

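Per the labels, 9 libraries were made, 3 each of HuR RIP, IgG RIP and Input, with the Ion Total RNA-Seq Kit v2. The submitters' processing notes name Bowtie2, featureCounts and mm10, with no versions. A single deposited table holds exon RPKM by the authors per pull-down library, the authors' mean RPKM for Input, the authors' log2 fold for each library, of (RPKM + 1) to (Input + 1), and deposited p-values and q-values for HuR against IgG, with the test not given in the sources used here. Decimal marks were missing from numbers of 1 or more and were restored from the fold columns: of 138826 distinct lines, 138761 matched in 6 folds and 65 in 5, and all 289 lines of the members matched in 6. Very small deposited p-values had lost their exponent and were not used. Fold columns follow the order of the RPKM columns, which exchanges HuR 2 and 3; the RPKM names were kept. Columns of per-sample values left unused numbered 0.

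Gene RPKM is the sum over listed exons of RPKM times length, divided by merged exon bases. Levels per base of the annotated transcript were an alternative chosen after seeing the data. From the step between values, 84.9% to 89.0% of genes summed to a whole number of reads (tolerance 0.05). The depth of Input is unknown. As these are RPKM, no count model was used. limma 3.58.1 in R 4.3.3 (trend and robust moderation, two-sided, Benjamini-Hochberg, threshold 0.05) was run on log2(RPKM + 0.5) for genes at 0.5 RPKM or more in at least 3 of 6 pull-down libraries, and fold changes on this scale understate those of low genes. The last-block comparison used limma with robust moderation and no trend, on the log2 ratio of last block to rest, with 0.5 added to each RPKM. The limma scripts were tested on simulated data. Input has no libraries of its own here, so its comparisons have no test. Nothing states that replicates of a group came from separate litters or days, and p-values measure the spread between libraries of single livers. Gene positions and 3′ UTRs are from GENCODE M21, where 99.3% of listed exons had the same place. No exon of the 10 genes overlapped an exon of another listed gene; the sources used here do not say whether counting used strand.

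The members and lists were chosen with earlier results of these data known. All 10 members are named whatever their values, with at most 4 genes by smallest p from each other list. The 5 genes most like the members, among the names kept for that search, are named too. The last-block comparison, merged blocks and the joined Orm pair were added after seeing the data, as were the blocks and exons singled out by value. Other steps used Python 3.11.15, pandas 2.3.3, numpy 2.4.6, scipy 1.17.1, Biopython 1.88 and matplotlib 3.10.9. Alternatives were other pseudocounts (0.1 and 1), filters, scalings, gene sets, weights, a replicate block and leaving out each library.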

Additional observations from a re-analysis of the deposited data

How the results depend on the processing

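With limma and the settings of the report, 0 members, 37 genes higher and 7 lower passed. Under a filter of 1 RPKM, 1 of 7 tested members passed (Crp), where 145 of 3458 genes were called higher. With exons shared with no other gene only, 1 of 10 passed (Crp), where 96 of 4766 genes were called higher. With protein-coding genes only, 2 of 10 passed (Saa4 and Crp), where 728 of 3943 genes, 18.5%, were called higher. With sample quality weights 8 of 10 passed (all but Hp and Itih4), where 2296 of 5510 genes were called higher. Leaving out single libraries gave 0 to 2 of 10 members. The 2, Saa4 and Crp, came without IgG 1, where 724 of 5510 genes were called higher. Genes higher and lower numbered 3 and 1 at a pseudocount of 1, 0 and 0 with no filter, 145 and 21 with the 1 RPKM filter, 1 and 18 with libraries centred at the median, 5 and 4 under quantile normalization, 4 and 1 without trend, 2296 and 84 with weights, 96 and 18 with unshared exons, 0 and 0 with both HuR 3 and IgG 1 removed, and 0 to 724 and 0 to 35 with single libraries left out. TMM-like scaling gave 342 lower. The replicate block gave 0 higher and 0 lower and 0 members. HuR and IgG columns of the same number carry the same letter, M or F. With group means removed, libraries of the same number correlated by 0.138, 0.117 and 0.086. Such values cannot show whether these libraries are pairs, and the main model took them as unpaired. Exons called stayed at 0 under the alternatives run on exons (both pseudocounts, centring, merged blocks, replicate block, single libraries left out); the others were not run on exons. Genes with a higher last block (110) numbered 0 at a pseudocount of 0.1, 258 at 1, 0 with the replicate block and 0 to 424 without single libraries (0 in each case but that of HuR 2). Fold changes that turned were those of Hp (centred -1.07, TMM-like -1.57, quantile -0.30, without HuR 3 -0.30, without IgG 2 -0.29), Itih4 (centred -0.27, TMM-like -0.71) and the last block of Orm2 (-0.95, and 0.39 without HuR 2). Without single libraries Hp ran from -0.30 to 0.37, Itih4 from 0.34 to 1.32 and the last block of Orm2 from -1.76 to 0.39. The cause was not tested. The fold change of Crp ran from 1.77 to 3.998 over all alternatives (adjusted p from 0.00416 to 0.540) and that of Saa4 from 0.70 to 2.93 (adjusted p from 0.00663 to 0.587). Depth limits Apcs, Orm2 and Saa2, which had 0 to 155 reads in a library.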
